A study of Mus musculus with 12 samples.

Results

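The genes described here encode the subunits of the proteasome, with its activators, its inhibitor and its assembly chaperones, as measured by RNA sequencing in epididymal white adipose tissue of the mouse. They were chosen by name: every gene whose deposited symbol begins with Psma to Psmg followed by a number, pseudogenes left out. This gave 47 genes of the 22983 in the table. Of these, 3 (Psmb8, Psmb9 and Psmb10) encode the catalytic subunits of the immunoproteasome. The other 44 are called constitutive here as a label only. They include the interferon-inducible activator genes Psme1 and Psme2, and the tissue-specific and non-subunit genes named below. Of the 47, 45 reached 1 FPKM (fragments scaled to transcript length and to the mapped fragments of the library) in at least 3 libraries and were tested, among 12801 genes tested in all. The 2 that did not were Psma8, a subunit of the testis, at 0.256 to 0.993 FPKM, and Psmb11, a subunit of the thymic cortex, at 0 to 0.0112 FPKM. Psma8 averaged 0.331 FPKM in ND and 0.894 in HFD without overlap, at levels below 1 FPKM in every library. With no filter, limma gave it a log2 difference of 0.51 for HFD against ND (adjusted p = 0.000104). Against HFD it gave -0.22 for LU (adjusted p = 0.0236) and -0.15 for CLE (adjusted p = 0.0856). Against ND it gave 0.36 for CLE (adjusted p = 0.025) and 0.29 for LU (adjusted p = 0.0154). One gene kept by the name rule, Psmc3ip, is not a subunit but a recombination factor named after its binding partner, and it lay between 0.727 and 1.55 FPKM.

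All mice were male C57BL/6J, individually housed and 21 weeks old after 16 weeks of diet. The ND group ate a normal diet and the HFD group a high-fat diet. The CLE group ate the high-fat diet with 1.5% (w/w) of an ethanol extract of chrysanthemum leaf, and the LU group the high-fat diet with 0.003% (w/w) luteolin, a flavonoid found in that leaf. Each group had 3 libraries, 1 per mouse: mice 2, 3 and 4 of ND, mice 12, 15 and 18 of HFD, mice 2, 4 and 11 of CLE, and mice 2, 3 and 8 of LU. No mouse carried an engineered allele, and every CLE and LU mouse was also on the high-fat diet.

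The proteasome is the barrel-shaped protease that degrades proteins tagged with ubiquitin. Its core particle stacks rings of alpha and beta subunits, and 3 of the beta subunits cut peptide bonds. A regulatory particle of ATPases and ubiquitin receptors caps the core, unfolds the substrate and threads it inward. Cells exposed to interferon, and many leukocytes without it, replace the 3 catalytic subunits by Psmb8, Psmb9 and Psmb10, which alters the peptides made for MHC class I. In fat the proteasome has been studied for its part in handling damaged proteins in enlarged adipocytes and in heat production by brown fat.

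Libraries of 1 group correlated at r of 0.978 to 0.992 over log2 values, and the summed FPKM over genes lay between 437161 and 457014. The reads behind each value are unknown, since FPKM carries no depth. In 4 libraries (mice 3 and 4 of ND, mouse 4 of CLE and mouse 2 of LU) the label carries a letter R that no source explains, and no HFD library carries it. With the letter as a covariate, 0 of 12801 genes passed an adjusted p of 0.05 for it by limma and 530 had an unadjusted p below 0.05, among them 0 of the 45 members. Marker RNA of fat cells and of white blood cells differed between the diets. Of 12 leukocyte markers 8 could be tested and 7 were called higher in HFD than in ND, and their summed FPKM was 296 to 474 in ND, 2253 to 2613 in HFD, 549 to 848 in CLE and 884 to 1019 in LU. The pan-leukocyte gene Ptprc averaged 11.04 FPKM in ND and 52.6 in HFD, and the macrophage gene Cd68 14.9 and 266, whereas the T cell genes Cd3e, Cd4 and Cd8a averaged below 1 FPKM in every group. Of 8 adipocyte markers 6 were called lower and 1 higher in HFD than in ND, and they summed to 27880 to 28990 FPKM in ND, 16490 to 18450 in HFD, 24460 to 26570 in CLE and 22810 to 28030 in LU. In such bulk tissue, fewer cells of a type and less RNA per cell cannot be told apart, and the part of cell makeup in the differences given here was not tested.

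Proteasome genes were abundant in ND adipose tissue. In FPKM, which is scaled by transcript length, the highest of the alpha subunits were Psma6 at 110 ± 8.65 (SD, n = 3 here and below) and Psma1 at 109 ± 9.16, and these neighbours did not differ beyond their spread. The lowest alpha subunit, Psma5, stood at 35.2 ± 3.92. The catalytic subunits Psmb7, Psmb6 and Psmb5 stood at 86.1 ± 11.4, 78.6 ± 5.63 and 56.7 ± 7.88, of which the first pair overlapped. Their immunoproteasome counterparts were lower, with Psmb8 at 29.8 ± 5.53, Psmb10 at 17.6 ± 2.80 and Psmb9 at 15.3 ± 2.54, the last pair overlapping. In the regulatory particle, Psmd2 led the non-ATPase subunits at 85.9 ± 4.77 and Psmc1 the ATPases at 78.4 ± 3.04. The chaperones, which help the rings and the ATPase base to assemble and then leave, were scarcer, from 9.34 ± 2.67 for Psmg4 to 17.9 ± 1.81 for Psmd5.

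Comparing HFD with ND asks what the high-fat diet did to this tissue. Proteasome genes moved little: 0 of the 45 members were called, a call being an adjusted p (Benjamini-Hochberg, limma on log2(FPKM + 1)) below 0.05 together with a fold change over 1.5. Over all genes tested, 14.9% were called higher and 10.8% lower. At an unadjusted p below 0.05 there were 14 members, and by the adjusted p alone 7 were higher and 4 lower, beside 25.7% and 24.8% of all genes. The groups did not overlap for 10 members higher and 7 lower, beside 30.2% and 29.4% of all genes. The median log2 difference of the 42 constitutive members tested was 0.03; over all 45 members the median was 0.03, beside -0.02 over all genes. It was -0.01 with quantile normalization, beside -0.087 over all genes, and 0.13 without the libraries marked R, beside -0.02. The median size of the log2 difference, sign left aside, was 0.14 over members and 0.32 over all genes, with median standard errors of 0.09 and 0.12. For 37 of 45 members, the 95% confidence interval of the difference lay wholly within a 1.5-fold change in either direction, as it did for 48.5% of all genes. The other 8 were Psmb10, Psmb9, Psmc4, Psmd10, Psme1, Psme2, Psme4 and Psmg2. The plot of log2 fold changes by role shows how narrow most of these intervals were.

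**Figure D1:**
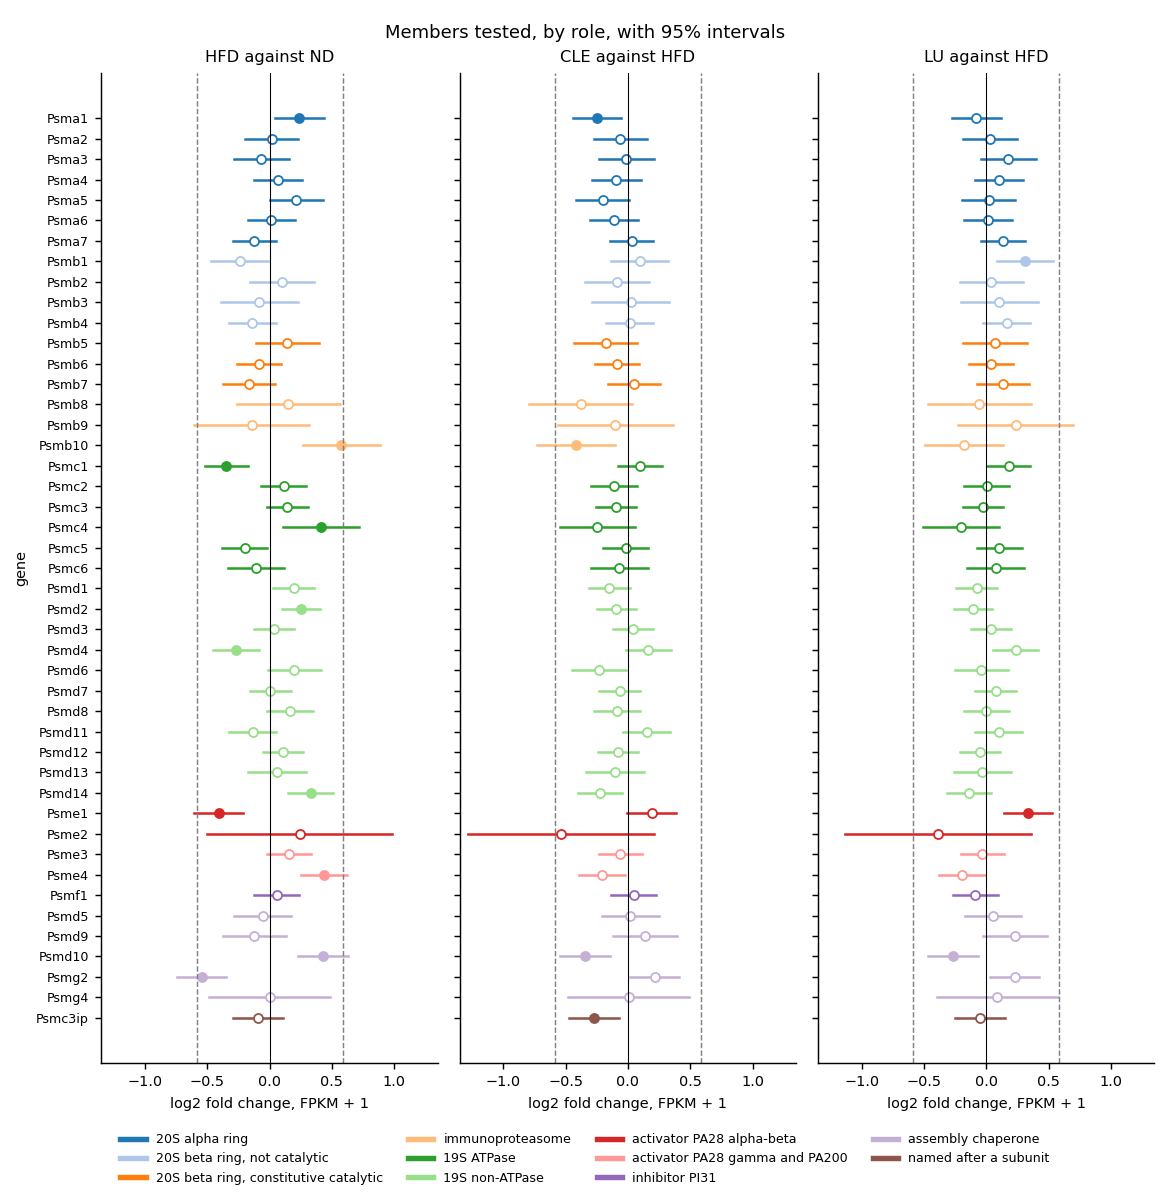
Log2 fold change on the FPKM + 1 scale (x axis) of the 45 members tested (y axis, ordered and coloured by role) for HFD against ND, CLE against HFD and LU against HFD, with lines for the 95% intervals, dashed lines at a 1.5-fold change and filled points for an adjusted p below 0.05. All points lie between the dashed lines, and the filled ones number 11, 4 and 3. Of the 4, 1 is Psmc3ip, which passed the filter only through libraries outside CLE.

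Within the core particle, the alpha ring that gates the chamber stayed close to its ND level. Psma1, the most abundant alpha subunit over all libraries, was at 103, 119 and 104 FPKM in ND and at 115, 138 and 132 in HFD. One ND library lay above the lowest HFD library, and the log2 difference was 0.24 (SE 0.09, adjusted p = 0.0397). Psma7 had the most negative value of the 7 alpha genes, a log2 difference of -0.12 (SE 0.08, adjusted p = 0.213). Summed over the 7 alpha genes, ND libraries held 504, 592 and 539 FPKM and HFD libraries 532, 591 and 571, so the groups overlapped. Of the 4 beta subunits without catalytic activity, 0 passed by limma at the adjusted p and 1 had an unadjusted p below 0.05. That one was Psmb1, at 58.5, 71.3 and 66.5 FPKM in ND and 51.8, 60.2 and 53.5 in HFD (log2 difference -0.24, SE 0.10, adjusted p = 0.0722). Psmb4, the most abundant of these 4, gave -0.14 (SE 0.09, adjusted p = 0.2), and Psmb2 gave 0.10 (SE 0.12, adjusted p = 0.506). The catalytic subunits of the constitutive core gave log2 differences of 0.14 for Psmb5, which cuts after hydrophobic residues, -0.09 for Psmb6, which cuts after acidic ones, and -0.17 for Psmb7, which cuts after basic ones. Their adjusted p-values were 0.326, 0.385 and 0.166.

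Of the immunoproteasome subunits only Psmb10 passed the adjusted p, and their differences were not compared with each other. Psmb10, the counterpart of Psmb7, was at 15.6, 16.4 and 20.8 FPKM in ND and at 22.7, 31.6 and 25.9 in HFD. Every HFD library lay above every ND library. The log2 difference was 0.58 (SE 0.14, 95% interval 0.26 to 0.89, adjusted p = 0.00575), a fold change of 1.49 that fell just short of the fold limit. Over the 12 fits that leave out 1 library, the log2 difference was between 0.45 and 0.70, with limma adjusted p-values of 0.0275 at most. Without ND mouse 4, HFD mouse 12 or HFD mouse 18 it was 0.70, 0.68 and 0.59, and the gene was then called. Psmb8, the counterpart of Psmb5, was at 27.9, 25.6 and 36.1 FPKM in ND and at 32.8, 34.7 and 31.2 in HFD. The groups overlapped, with a log2 difference of 0.15 (95% interval -0.26 to 0.56, adjusted p = 0.532). Of the Psmb8 level 89.5% sat in 1 assembled isoform row, and without assembled isoforms the direction turned, to -0.53. Psmb9, the counterpart of Psmb6, was at 12.5, 16.0 and 17.5 FPKM in ND and at 13.4, 15.6 and 12.1 in HFD. These groups overlapped too, with a log2 difference of -0.14 (95% interval -0.61 to 0.32, adjusted p = 0.594). Since the summed leukocyte markers differed severalfold between the same libraries, these values stood beside a large shift in marker RNA, and its part in the Psmb10 difference was not tested.

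**Figure D2:**
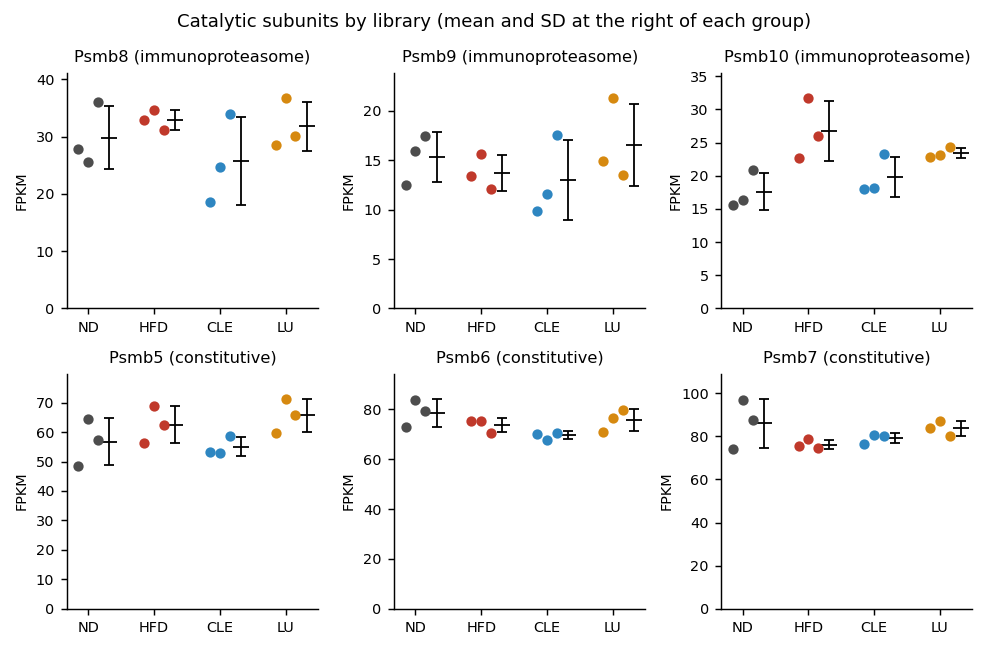
FPKM (y axis) of Psmb8, Psmb9 and Psmb10 and, in the lower row, of the subunits each replaces, in the 3 libraries of each of the 4 groups (x axis), with the group mean and SD beside the points. Psmb10 is between 22.7 and 31.6 in HFD and between 15.6 and 20.8 in ND, while the other 5 genes overlap between those groups.

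The share of each catalytic site held by immunoproteasome RNA was taken as the immunoproteasome subunit's FPKM divided by its sum with its counterpart. For Psmb10 with Psmb7 it was 17.4%, 14.5% and 19.2% in ND and 23.2%, 28.7% and 25.8% in HFD. The groups did not overlap, and the means were 17.0% ± 2.39 and 25.9% ± 2.77. The mean log2 ratio differed by 0.77 (two-sided exact permutation test p = 0.1, the smallest that 3 libraries against 3 allow, 0.6 when adjusted over the 18 such tests made here). For Psmb8 with Psmb5 the share was 34.5% ± 5.38 in ND and 34.5% ± 1.99 in HFD (exact permutation p = 0.9, adjusted p = 0.9). For Psmb9 with Psmb6 it was 16.2% ± 1.71 in ND and 15.6% ± 1.32 in HFD (exact permutation p = 0.6, adjusted p = 0.831). Thus the share of 1 site was higher in every HFD library than in every ND library, and for the other sites the groups overlapped. The sites were not tested against each other. In CLE the Psmb10 share was 19.98% ± 2.21 and in LU 21.9% ± 1.21, both between ND and HFD. Against HFD the log2 ratio differed by -0.49 for CLE and by -0.32 for LU, with exact permutation p-values of 0.1 and 0.2 and adjusted values of 0.6 and 0.771.

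Over all genes tested, 25.7% were higher and 24.8% lower by the adjusted p alone. Of the 6 ATPases and 11 non-ATPase subunits of the regulatory particle, 5 passed it, 3 higher and 2 lower. Among its 6 ATPases, which turn ATP into the pull that unfolds substrates, Psmc4 was at 29.5, 33.8 and 36.2 FPKM in ND and at 37.1, 47.8 and 48.8 in HFD. All HFD libraries were higher, with a log2 difference of 0.41 (SE 0.14, adjusted p = 0.028), but 0.27 (adjusted p = 0.105) for the transcript of Psmc4 with the highest mean and 0.57 (adjusted p = 0.0833) without the libraries marked R. Psmc1 was at 80.8, 79.3 and 75.0 FPKM in ND and at 58.3, 60.7 and 65.2 in HFD. All HFD libraries were lower, by -0.35 on the log2 scale (SE 0.08, adjusted p = 0.00373), but the transcript of Psmc1 with the highest mean gave only -0.04 (adjusted p = 0.856), and leaving out assembled isoforms gave -0.63 (adjusted p = 0.0171). The size of the Psmc1 difference therefore depended on which isoform rows were summed. The remaining 4 ATPases gave adjusted p-values above 0.05. Summed over the 6, ND libraries held 304, 339 and 319 FPKM and HFD libraries 296, 313 and 331.

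Of the 11 non-ATPase subunits, Psmd14, the deubiquitinase that strips ubiquitin from arriving substrates, was at 29.5, 34.1 and 32.1 FPKM in ND and at 37.0, 41.9 and 42.1 in HFD (log2 difference 0.33, SE 0.08, adjusted p = 0.00588). Psmd2, a large scaffold of the base, was at 81.3, 90.8 and 85.4 FPKM in ND and within 102 to 103 in all 3 HFD libraries (log2 difference 0.25, SE 0.07, adjusted p = 0.0112). Neither gene overlapped between the groups. Psmd4, a ubiquitin receptor, went the other way, at 79.6, 82.3 and 83.8 FPKM in ND and 64.1, 71.9 and 67.6 in HFD (log2 difference -0.27, SE 0.08, adjusted p = 0.0189). Receptor and deubiquitinase thus differed in sign within 1 particle. Over all 11 genes, 9 had a positive sign and the median log2 difference was 0.11.

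The activators and chaperones gave the most negative and some of the most positive values among the members. Psme4, an alternative cap that opens the core without ATP, was at 21.4, 23.9 and 23.7 FPKM in ND and at 31.3, 32.3 and 30.7 in HFD. The groups were well apart, with a log2 difference of 0.44 (SE 0.08, adjusted p = 0.00124), or 0.29 (adjusted p = 0.0976) for its transcript with the highest mean. Psme1, the alpha chain of the interferon-inducible activator, was at 51.8, 56.1 and 60.4 FPKM in ND and at 39.8, 45.6 and 40.7 in HFD. It was lower in every HFD library, by -0.41 on the log2 scale (SE 0.09, 95% interval -0.60 to -0.21, adjusted p = 0.00267). Psme2, the beta chain of the same activator, was at 72.2, 105 and 183 FPKM in ND and at 119, 221 and 87.2 in HFD. It spread more than other members because 1 short transcript, ENSMUST00000159297, was listed at 83.6 in ND mouse 4, 32.3 in HFD mouse 12 and 112 in HFD mouse 15, and at about 0 in the other 9 libraries. With the main transcript alone the Psme2 difference was 0.06 (adjusted p = 0.798), beside 0.24 (SE 0.34, adjusted p = 0.581) for the sum. The 2 chains that form 1 activator ring were therefore not measured with the same precision. The third chain of that family, Psme3, which is nuclear, gave 0.16 (SE 0.08, adjusted p = 0.125), and the inhibitor Psmf1 gave 0.06 (SE 0.08, adjusted p = 0.59).

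Psmg2, a chaperone that guides alpha ring assembly together with Psmg1, had the most negative log2 difference of the 45 members. It was at 11.8, 12.2 and 12.0 FPKM in ND and at 7.56, 8.39 and 7.77 in HFD. The ND libraries were almost alike and stood far above the HFD ones, with a log2 difference of -0.55 (SE 0.09, 95% interval -0.74 to -0.35, adjusted p = 0.000415). Psmd10, also called gankyrin, a chaperone of the ATPase base that is known as an oncoprotein of the liver, was at 9.90, 12.3 and 12.0 FPKM in ND and at 16.2, 15.4 and 15.2 in HFD. Every HFD library was above every ND library, with a log2 difference of 0.43 (SE 0.09, 95% interval 0.23 to 0.63, adjusted p = 0.00239). Psmd5, the most abundant chaperone, gave -0.06 (SE 0.10, adjusted p = 0.668). Of the other chaperones Psmd9 gave -0.12 and Psmg4 0.00. Of the 5 only Psmg2 and Psmd10 passed the adjusted p, 1 lower and 1 higher, beside 24.8% lower and 25.7% higher of all genes. Psmg1, the partner of Psmg2, is deposited under the name of a neighbouring gene, so it is not a member by the rule, and it was looked up after the Psmg2 values were seen. It was at 12.8, 14.5 and 13.8 FPKM in ND and at 7.34, 8.94 and 7.54 in HFD, a log2 difference of -0.72 (SE 0.12, adjusted p = 0.000421), and was called. Psmg3, also under another name, gave -0.23 (SE 0.15, adjusted p = 0.206).

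**Figure D3:**
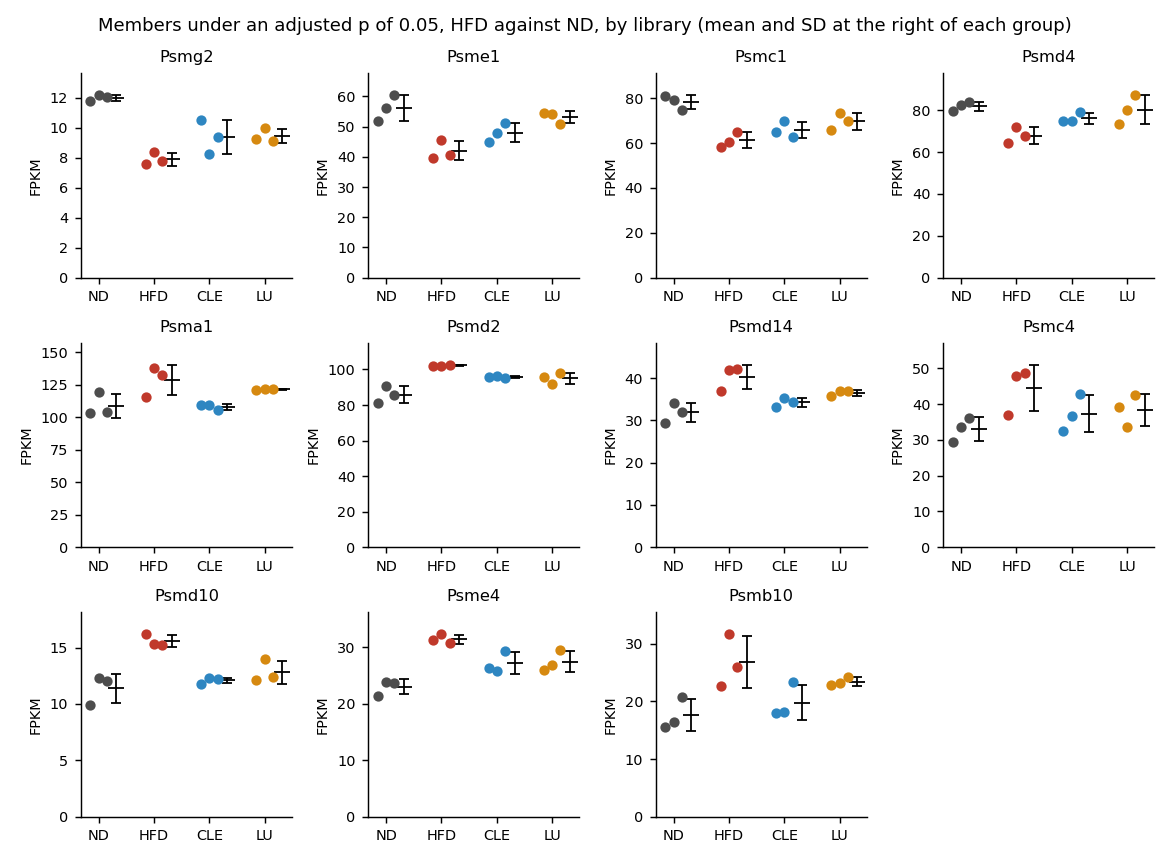
FPKM (y axis, from 0) in each library of the 4 groups (x axis) for the 11 members with an adjusted p below 0.05 for HFD against ND, ordered from the most negative to the most positive log2 difference, with the group mean and SD beside the points. Psmg2 is at 11.8 to 12.2 in ND and 7.56 to 8.39 in HFD, and CLE and LU lie mostly between ND and HFD.

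Adding the leaf extract or luteolin to the high-fat diet was compared with the high-fat diet alone. The 2 supplements were given at doses that differ widely by weight. With CLE, 0 of 45 members were called by limma, beside 6.34% of all genes called higher and 10.2% lower, and 8 members had an unadjusted p below 0.05. By the adjusted p alone 0 were higher and 4 lower, beside 15.6% and 18.2% of all genes, 1 of the 4 being Psmc3ip, and the groups did not overlap for 2 higher and 10 lower, beside 24.3% and 26.2%. Psmc3ip passed the filter only through libraries outside CLE, so its place in these counts supports nothing. With LU, 0 of 45 were called, beside 4.79% higher and 7.66% lower of all genes, and 7 had an unadjusted p below 0.05. By the adjusted p alone 2 were higher and 1 lower, beside 13.3% and 13.7%, and the groups did not overlap for 10 higher and 4 lower, beside 25.6% and 22.1%. The interval of the difference lay within a 1.5-fold change for 42 members with CLE and 43 with LU, beside 59.1% and 62.2% of all genes. The median log2 difference over members was -0.08 with CLE and 0.04 with LU, beside 0.01 and 0.03 over all genes. These comparisons share the HFD libraries with each other and with the comparison of HFD and ND, so a high HFD value enters all 3.

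Psmd10 was the only member with an adjusted p below 0.05 in all 3 comparisons that involve HFD. It was at 11.8, 12.3 and 12.2 FPKM in CLE and at 12.1, 14.0 and 12.4 in LU, below every HFD library. The log2 difference from HFD was -0.34 with CLE (SE 0.09, adjusted p = 0.0134) and -0.27 with LU (SE 0.09, adjusted p = 0.0485), and these adjusted p-values stayed below 0.05 in 21 and 9 of 24 alternative fits. Against ND, the differences of 0.08 for CLE and 0.16 for LU were within 95% intervals of -0.12 to 0.28 and -0.04 to 0.36. Psmb10 was at 17.9, 18.1 and 23.3 FPKM in CLE, where 1 library lay above the lowest HFD library, and the log2 difference from HFD was -0.41 (SE 0.14, adjusted p = 0.0429, below 0.05 in 9 of 24 alternative fits). In LU it was at 22.8, 23.1 and 24.2 FPKM, a narrow range inside that of HFD, and the difference was -0.18 (95% interval -0.49 to 0.14, adjusted p = 0.393). CLE and LU did not themselves differ for Psmb10 at the adjusted p, with a log2 difference of -0.24 (95% interval -0.55 to 0.07). Psmb8 was at 18.7, 24.7 and 34.0 FPKM in CLE and 28.5, 36.7 and 30.2 in LU. Its log2 difference of CLE from HFD was -0.38 (95% interval -0.79 to 0.04, adjusted p = 0.146), and it became -0.59 (adjusted p = 0.0194), which is a call, without CLE mouse 11, but 0.10 (adjusted p = 0.928), of the opposite sign, without assembled isoforms. Psmb9 was at 9.86, 11.6 and 17.6 FPKM in CLE and at 14.9, 21.3 and 13.5 in LU, and both groups overlapped with HFD. CLE mouse 11 had the highest value of its group for Psmb8, Psmb9 and Psmb10 alike, and also the highest leukocyte marker sum, 848 FPKM. In LU, mouse 3 had the highest Psmb8 and Psmb9 and the lowest leukocyte marker sum, 884 FPKM. By the mean log2(FPKM + 1) of the same markers, LU mouse 2 was lowest, at 3.579, beside 3.663 in LU mouse 3. LU mouse 8 had the highest Psmb10 and the highest marker sum, 1019 FPKM. The summed FPKM of the interferon response genes described below was highest in CLE mouse 11 (257) and in LU mouse 3 (283) within their groups. The part of either set in these values was not tested.

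Psme1 was at 45.0, 47.8 and 51.2 FPKM in CLE and at 54.4, 54.3 and 50.8 in LU. The LU libraries were all above the HFD libraries, with a log2 difference of 0.33 (SE 0.09, 95% interval 0.14 to 0.53, adjusted p = 0.0172), while the CLE difference was 0.19 (95% interval -0.01 to 0.38, adjusted p = 0.123). Psmb1 was at 61.3, 76.7 and 68.3 FPKM in LU, above all HFD libraries (log2 difference 0.31, SE 0.10, adjusted p = 0.0449, below 0.05 in 10 of 24 alternative fits). Psma1 was at 109, 109 and 105 FPKM in CLE, below all HFD libraries (log2 difference -0.25, SE 0.09, adjusted p = 0.0495, below 0.05 in 6 of 24 alternative fits). The meiotic factor Psmc3ip, at 0.727 to 0.746 FPKM in CLE, reached 1 FPKM in 6 libraries and in none of CLE. It passed the filter only through the other groups, so its lower CLE level is given as a description with no test. Psmg2 was at 10.5, 8.22 and 9.39 FPKM in CLE and at 9.27, 9.95 and 9.11 in LU. Both group means lay between those of HFD and ND, although 1 CLE library was below the highest HFD library, and against HFD the adjusted p-values were 0.0839 and 0.0779. Against ND, Psmg2 was lower in LU by -0.32 on the log2 scale (SE 0.09, adjusted p = 0.0402) and in CLE by -0.33 (SE 0.09, adjusted p = 0.0554). Psme4 was at 26.3, 25.8 and 29.4 FPKM in CLE and 26.0, 26.8 and 29.5 in LU, all below HFD and above ND, with adjusted p-values against HFD of 0.0796 and 0.114.

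Against ND, 0 of 45 members were called with CLE, beside 2.11% of all genes called higher and 0.875% lower, and 0 of 45 with LU, beside 4.97% and 1.59%. By limma, 7 and 5 members had an unadjusted p below 0.05. By the adjusted p alone the only members were Psmc3ip for CLE, beside 3.39% of all genes higher and 1.96% lower, and Psmg2 for LU, beside 8.66% and 4.08%, both of them lower. The CLE count supports nothing, since Psmc3ip passed the filter only through libraries outside CLE. The groups did not overlap for 3 members higher and 9 lower with CLE, beside 13.2% and 11.5%, and for 10 higher and 2 lower with LU, beside 18.5% and 11.6%. Shares of members near or below those of all genes are no result about the members.

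Comparing the extract with luteolin directly, 0 of 45 members were called by limma, beside 0% of all genes called higher and 0.00781% lower. Of the 2 with an unadjusted p below 0.05, 1 was Psma5. The other, Psmc3ip, passed the filter only through libraries outside CLE, so its place in this count supports nothing. The members nevertheless lay mostly on 1 side: 41 of 45 had a lower mean log2 value in CLE than in LU, and 37 of 45 with scaling by median ratios, which was the smallest number under any scaling. The groups did not overlap for 15 members, all lower in CLE, and for 0 members in the other direction, beside 6.3% and 2.7% of all genes. The median log2 difference was -0.09 over members and -0.03 over all genes. Members of 1 complex share libraries and are not independent, and their common sign carries no test. The 7 alpha genes summed to 519, 530 and 522 FPKM in CLE and to 565, 590 and 597 in LU. All 3 LU sums were higher than all 3 CLE sums. Psmb5 had the lowest value among constitutive members, -0.25 (SE 0.12, adjusted p = 0.897), and the intervals of 42 members lay within a 1.5-fold change, as for 84% of all genes.

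**Figure D4:**
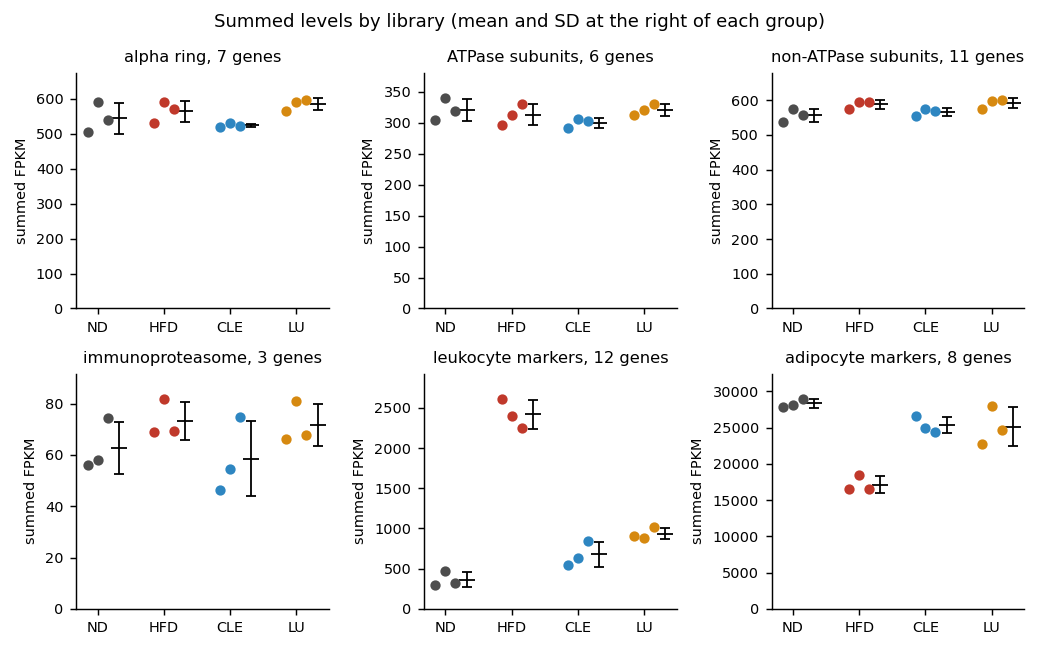
Summed FPKM (y axis, from 0) of the alpha ring, the ATPase and non-ATPase subunits, the immunoproteasome subunits, the leukocyte markers and the adipocyte markers in each library of the 4 groups (x axis), with the group mean and SD beside the points. The alpha ring sum is between 504 and 597 in all 12 libraries, while the leukocyte marker sum is between 296 and 474 in ND and between 2253 and 2613 in HFD.

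Around the proteasome itself, a list of 27 partners and regulators had 26 genes that could be tested for HFD against ND, of which 1 was called higher and 1 lower, with a median log2 difference of 0.03. Over all genes tested, 14.9% were called higher and 10.8% lower. The gene called higher was Ddi2 (log2 difference 0.79, SE 0.10, adjusted p = 5.83e-05), the protease that activates the transcription factor encoded by Nfe2l1. The gene called lower was Ubb, a polyubiquitin gene (-0.72, SE 0.15, adjusted p = 0.00174). Both were singled out after their values were seen. Nfe2l1, whose product drives proteasome genes when proteasome activity falls, averaged 205 ± 23.7 FPKM in ND, 304 ± 5.89 in HFD, 274 ± 8.10 in CLE and 245 ± 39.3 in LU. Its log2 difference of HFD from ND was 0.57 (SE 0.12, adjusted p = 0.00221), below the fold limit. The ubiquitin receptor Adrm1 gave -0.24 (SE 0.08, adjusted p = 0.0326), the assembly factor Pomp -0.05 (adjusted p = 0.764) and the deubiquitinase Usp14 0.04 (adjusted p = 0.674).

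The immunoproteasome subunits work upstream of MHC class I and are induced by interferon, so both sets were read beside them. Of 12 genes of MHC class I antigen processing, 4 were called higher in HFD than in ND and 0 lower, with 6 at an unadjusted p below 0.05. Over all genes tested, 14.9% were called higher and 10.8% lower, which stands beside these and the counts that follow. The 4 were Calr, Tapbp, Pdia3 and H2-K1, named after their values were seen. By sign 8 of the 12 were higher in HFD and 4 lower, the 4 being Tap1, Tap2, Tapbpl and Nlrc5. The peptide transporter genes Tap1 and Tap2, which are neighbours of Psmb8 and Psmb9 on chromosome 17, gave -0.30 (SE 0.18, adjusted p = 0.192) and -0.24 (SE 0.12, adjusted p = 0.115). B2m, the light chain of class I, gave 0.39 (SE 0.15, adjusted p = 0.0507). Of 18 interferon response genes 17 were tested, with 2 called higher and 2 lower and a median log2 difference of -0.25. Irf1, which binds the promoters of immunoproteasome genes, gave -0.45 (SE 0.10, adjusted p = 0.00361). Psme1 and Irf1 were thus both lower in HFD, at log2 differences of -0.41 and -0.45, whereas Psmb10 was higher. The 9 stromal, endothelial and mesothelial markers had 3 called lower and 0 higher, with 4 at an unadjusted p below 0.05 by limma.

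The start of each gene was searched for letters of 4 motifs in the RefSeq promoter windows (GRCm38.p6), which run from 250 bases before the start to 50 after it. A window was found for 39 of the 47 members, 36 constitutive and 3 of the immunoproteasome. On either strand, the core of the antioxidant response element, TGACNNNGC, which Nfe2l1 protein and its relatives bind, was present for 6 of 36 constitutive members (Psmb5, Psmb6, Psmc6, Psmd12, Psmd9 and Psme4) and for 0 of 3 immunoproteasome members, beside 12.4% of all 32851 windows. The interferon-stimulated response element, a pair of GAAA stretches 2 bases apart, was present for 5 of 36 (Psmb3, Psmd4, Psmd9, Psme1 and Psmg4) and 0 of 3, beside 3.44%. The gamma-activated site, TTCNNNGAA, was present for Psmd2 and Psmb8, beside 8.3%, and the NF-kB motif, GGG and CC 5 bases apart, for 21 of 36 and for Psmb9, beside 50.8%. The NF-kB letters also match many GC-rich stretches, as the share of all windows shows. A match gives letters only and no binding was measured.

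The sequences before the start are shown for the pair of members with the most positive log2 differences of HFD from ND, Psmb10 and Psme4, for Psmd4, which had a negative one, and for Psmb6, whose stretch ends in the antioxidant response element core. Each is from RefSeq, build GRCm38.p6, read 5′ to 3′ on the strand of the gene, cut where an annotated exon begins, with matched motif letters in capitals.
Psmb10 (chr8:105938445-105938642, minus strand): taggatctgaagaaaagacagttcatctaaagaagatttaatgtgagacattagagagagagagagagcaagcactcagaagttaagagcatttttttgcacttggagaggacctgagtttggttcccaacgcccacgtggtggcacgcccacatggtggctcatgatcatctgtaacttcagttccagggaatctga
Psme4 (chr11:30771525-30771725, plus strand): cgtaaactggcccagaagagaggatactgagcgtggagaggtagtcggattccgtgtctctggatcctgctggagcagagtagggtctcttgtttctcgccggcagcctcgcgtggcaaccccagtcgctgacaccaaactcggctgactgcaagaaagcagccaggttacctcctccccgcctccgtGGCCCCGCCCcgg
Psmd4 (chr3:95042615-95042864, minus strand): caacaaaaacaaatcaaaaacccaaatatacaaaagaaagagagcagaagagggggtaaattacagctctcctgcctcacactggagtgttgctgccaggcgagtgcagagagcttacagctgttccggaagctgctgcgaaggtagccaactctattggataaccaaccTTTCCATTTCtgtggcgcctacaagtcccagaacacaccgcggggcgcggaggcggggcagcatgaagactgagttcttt
Psmb6 (chr11:70525107-70525356, plus strand): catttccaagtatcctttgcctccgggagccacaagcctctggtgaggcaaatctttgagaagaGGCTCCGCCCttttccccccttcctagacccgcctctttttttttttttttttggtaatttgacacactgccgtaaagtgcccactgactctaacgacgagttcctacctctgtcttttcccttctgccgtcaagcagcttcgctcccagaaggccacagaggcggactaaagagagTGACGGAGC
The Psmb10 stretch held none of the 4 motifs. The capitals mark an NF-kB match in Psme4, an interferon-stimulated response element on the other strand in Psmd4, and in Psmb6 an NF-kB match followed at the end by the antioxidant response element core. The antioxidant response element letters of Psme4 lay in the part not shown.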

How the data were processed

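RNA of epididymal adipose tissue of 12 mice was sequenced as paired-end TruSeq libraries. The authors deposited FPKM values per transcript, made with Cufflinks 2.2.1 after TopHat2 2.0.12, Bowtie2 2.2.3 and CASAVA 1.8.2, per the labels' processing notes. The genome build is not given in the sources used here, but 87.6% of the known transcripts that were matched to GENCODE M21 (GRCm38) had its exact start and end. Of 152210 rows, 142324 with an Ensembl transcript (known or an assembled isoform of it, class j) were summed per gene by transcript identifier, because deposited gene names can merge neighbouring loci. The table has 15 FPKM columns, and the 3 whose names fit none of the samples were left aside. The column headed MD4 was taken as ND mouse 4 by inference from its number, so ND values were also computed without it. The table's columns of the authors' own comparisons (fold changes and p-values) were not used.

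A gene entered the fit when 3 or more libraries reached 1 FPKM. Values were fitted on log2(FPKM + 1), a scale that understates changes of low genes, with limma 3.58.1 in R 4.3.3 over all 12 libraries, without trend. Calls needed a Benjamini-Hochberg adjusted p under 0.05 over all 12801 genes and a fold change over 1.5. The script was tested on simulated data. Ratios of catalytic pairs were compared by two-sided exact permutation tests, whose smallest p is 0.1 with 3 libraries against 3. Tables were read with Python 3.11.15 and pandas 2.3.3. FPKM holds no depth, so no counting intervals are given. Strand was not stated, so overlapping genes cannot be told apart. Each mouse is 1 library, and p-values set the difference between groups against the spread between mice. The paper calls the 3 samples of each group representative and does not say how they were picked. Their spread may therefore differ from that of all mice in the group.

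The members, gene lists, marker lists and motifs were chosen with earlier results of these data known. Named with values are the immunoproteasome subunits and their counterparts, Psme1 and Psme2, every called member, and per role the most abundant member and those with the most positive and most negative difference of HFD from ND, with fixed genes of each list, of which some are not reported here. Members that passed the adjusted p alone are named in addition. Alternatives were another pseudocount, no filter or a mean of at least 5 FPKM, other scalings, a fit of only the compared groups, the letter R as covariate or its libraries left out, no class j rows, a mouse number block, and each library left out. The transcript with the highest mean and the sum by deposited name were added after the data were seen.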

Additional observations from a re-analysis of the deposited data

How the results depend on the processing

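The counts of 0 called members rest on genes close to the fold limit. For HFD against ND, Psmb10 was called higher with a pseudocount of 0.1 (log2 difference 0.60), with scaling by median ratios (0.59), without the libraries marked R (0.73), and without ND mouse 4, HFD mouse 12 or HFD mouse 18, so that the immunoproteasome count was 1 in those settings and by the adjusted p alone, and 0 to 1 over the fits that leave out 1 library. Among constitutive members, 1 was called higher without the libraries marked R (Psmd10, 0.60) and 6 passed by the adjusted p alone. In the lower direction 1 was called with a pseudocount of 0.1, with quantile normalization and with the letter R as covariate (Psmg2 in each, -0.60, -0.61 and -0.60), 1 without class j rows (Psmc1, -0.63), and 4 passed by the adjusted p alone. For CLE against HFD, the adjusted p alone gave 3 constitutive members and 1 immunoproteasome member lower, and over the fits that leave out 1 library the immunoproteasome count lower was 0 to 1. The 1 was Psmb8 without CLE mouse 11. For LU against HFD the adjusted p alone gave 2 constitutive members higher and 1 lower. For CLE against ND, 1 was lower with a pseudocount of 0.1 (Psmc3ip, -0.66) and 1 by the adjusted p alone, and for LU against ND 1 was lower by the adjusted p alone. Psmc3ip passed the filter only through libraries outside CLE. Its counts for CLE against ND, and its place among the 3 constitutive members for CLE against HFD, support nothing. Without the libraries marked R, which leaves 1 ND library assumed to vary like the other groups, the median log2 difference of constitutive members was 0.11 for HFD against ND, 0.079 for CLE against ND and 0.22 for LU against ND, where it had been 0.03, -0.04 and 0.07. Over the fits that leave out 1 library the median for HFD against ND was -0.033 to 0.058. The cause of these changes was not tested.

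Of the members with an adjusted p below 0.05 for HFD against ND, Psmb10, Psmd10, Psmd14 and Psmg2 stayed below it in all 24 alternative fits, Psme1 and Psmc1 in 23, Psme4 and Psmd2 in 22, Psmd4 in 19, Psmc4 in 18 and Psma1 in 13. For CLE against HFD, Psmb10 did so in 9 of 24 and Psma1 in 6 of 24, and for LU against HFD Psme1 did so in 19 and Psmb1 in 10 of 24.

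Mouse numbers recur between ND, CLE and LU but mark different, singly housed animals. The correlations of same-numbered libraries' deviations were -0.103 to 0.186, so the numbers did not pair the samples. The mouse number was also used as a replicate block in a fit of the ND, CLE and LU libraries only. The constitutive medians were then -0.071 for CLE against LU, -0.012 for CLE against ND and 0.066 for LU against ND. The counts of called members stayed at 0. Libraries whose number does not recur add nothing to this fit, which leaves little to estimate the spread, so these counts carry little weight.

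The 3 mice per group and the unknown depth limit these results. For 8 members the interval of HFD against ND reached past a 1.5-fold change, so that a change of that size was not resolved. The 3 immunoproteasome genes had a median standard error of 0.19 on the log2 scale and all members one of 0.09.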
